A study of Homo sapiens with 54 samples.

Results

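Treatment of HT-29 cells with tumour necrosis factor (TNF) plus epidermal growth factor (EGF) was compared with treatment by TNF plus insulin. HT-29 is an established human line of epithelial origin from a colon adenocarcinoma. The comparison used 12 of the 54 arrays of the study, chosen by treatment label alone: 6 arrays with TNF (100 ng/ml) and EGF (100 ng/ml), named TNF+EGF, and 6 arrays with TNF (100 ng/ml) and insulin (500 ng/ml), named TNF+insulin, each with 2 replicates at 4, 8 and 16 h. Further groups of 6 arrays were used for support, namely EGF alone at 100 ng/ml, insulin alone at 500 ng/ml and TNF alone at 100 ng/ml. All groups, controls included, had received interferon-gamma (200 U/ml) over the 24 h before treatment, so every value below was measured in interferon-primed cells of 1 cell line. The series describes the replicates as biological duplicates.

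EGF and insulin both act through receptor tyrosine kinases. The EGF receptor signals strongly through RAS and ERK, which induce short-lived transcription factors and their own feedback inhibitors, and also through PI3K. The insulin receptor signals mainly through its substrate proteins to PI3K, AKT and mTORC1, which hold FOXO transcription factors out of the nucleus and raise translation of ATF4. ATF4 is a transcription factor that switches on genes for amino acid synthesis, uptake and tRNA charging, both during amino acid shortage and downstream of mTORC1. TNF activates NF-κB and stress kinases, and in intestinal cells it cooperates with interferon-gamma in inflammation and cell death, which EGF and insulin are known to modulate.

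RNA was measured on Affymetrix arrays, and a level below is a MAS5 signal on a linear scale. Levels of different genes come from different probe sets and are not compared. A difference is TNF+EGF minus TNF+insulin in log2 (signal + 12.49), averaged over the 3 times unless a time is named, and it understates the change of dim genes. The value after ± is its standard error, with n = 6 arrays for each treatment over the times and n = 2 at a single time. The spread behind it was estimated by limma over all 54 arrays. A gene is called higher or lower only if its limma p, adjusted by Benjamini and Hochberg over 13422 probe sets, was under 0.05. A pair means the arrays of both mixtures with the same time and replicate number. In bulk RNA a change in level per cell and a change in the share of cells that hold the transcript cannot be told apart.

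The 12 arrays had median signals of 110.9 to 149.0, and replicates correlated by 0.954 to 0.974 across probe sets. ACTB is read by probe sets near both transcript ends, and the log2 ratio of 3′ over 5′ signal, which grows as RNA breaks down, was −0.11 to 0.15 in TNF+EGF arrays and −0.35 to 0.63 in TNF+insulin arrays. The 0.63 came from the 16 h replicate 1 of TNF+insulin, which also had the lowest median signal of the 12, 110.9. Counts without this array are given below. The highest ratios of all 54 arrays lay outside both mixtures, 1.19 in the 8 h replicate 2 of TNF alone and 0.976 in the 8 h replicate 2 of insulin alone. Values that use those groups are therefore also given without the 8 h arrays of replicate 2 where that changed a count. Of 12 epithelial markers 10 passed the filter on low signal, while CDH17 and CDX2 did not pass. Marker signals were summed over all listed genes on the array, whether or not they passed. The epithelial sums were 69698 to 94218 in TNF+EGF arrays and 62413 to 83614 in TNF+insulin arrays. Of the leukocyte markers 7 of 12 passed, LYZ the highest among them, and the summed signals were 6749 to 9025 in TNF+EGF arrays and 5842 to 8859 in TNF+insulin arrays. The fibroblast sums were 684 to 1058 and the endothelial sums 289 to 532 in TNF+EGF arrays, against 804 to 1201 and 366 to 631 in TNF+insulin arrays, and no marker of these 3 lists was called.

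The clearest difference between the mixtures was a set of genes for amino acid supply and stress that stood lower with TNF+EGF than with TNF+insulin. In the other direction, TNF+EGF gave higher levels of the Wnt antagonist DKK1, the keratins KRT19 and KRT20, the integrin ITGA2 and the complement regulators CD55 and CD59. Over the 3 times 55 probe sets were higher (0.41% of 13422) and 96 were lower (0.715%), which stood for 35 higher and 72 lower genes. The median difference of all genes was −0.03. Few differences were large: 4 of the higher and 8 of the lower probe sets reached a 2-fold change, and 142 of the 151 had the same sign at all times. Of the higher probe sets 42 were higher in 6 of 6 pairs and of the lower ones 68 were lower in 6 of 6, against 327 and 491 of all 13422. The calls came from the same arrays as the pairs, so a larger share than among all probe sets was built in. The arrays with the same replicate number deviated together, and with this number as a block within each time 420 probe sets were called, 160 higher and 260 lower, among them all 151. The count without blocks rested in part on single arrays. It was 61 without the 8 h replicate 1 of TNF+insulin, 67 without the 16 h replicate 1 of TNF+EGF, 78 without the 4 h replicate 2 of TNF+EGF, 87 without the 16 h replicate 2 of TNF+insulin, 90 without the 8 h replicate 2 of TNF+EGF, 98 without the 16 h replicate 1 of TNF+insulin and 99 without the 4 h replicate 1 of TNF+EGF.

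Many genes of the ATF4 and amino acid response were lower with TNF+EGF. Of 32 listed genes 30 were measured, 13 were called lower and 0 higher in the limma fit, beside 0.715% and 0.41% of all probe sets. At an unadjusted p under 0.05, 20 were lower, as were 622 of all 8105 genes. Their median difference was −0.46, and 28 of 30 lay below 0, while 56% of all 8105 genes did. With the replicate block 18 were lower, with median centring 9 and with only both mixtures fitted 7. The count of 13 came to 8 without the 8 h replicate 1 of TNF+insulin and lay between 9 and 13 without any other of the 12 arrays.

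Asparagine synthetase (ASNS), which makes asparagine from aspartate and glutamine, had signals of 1943 and 2035 at 4 h, 2901 and 2724 at 8 h and 8782 and 9813 at 16 h in TNF+EGF arrays. ASNS in TNF+insulin arrays had 3922 and 3483 at 4 h, 7864 and 7510 at 8 h and 8632 and 11267 at 16 h. The mixtures did not overlap at 4 or 8 h and overlapped at 16 h. The difference of ASNS was −0.81 ± 0.10 over the times (adjusted p = 1.18e-05) and −1.45 ± 0.18 at 8 h, against −0.09 ± 0.18 at 16 h.

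PHGDH and PSPH of the serine pathway were lower. PHGDH, the enzyme that commits a glycolytic intermediate to serine, had signals of 401 and 345 at 4 h, 366 and 419 at 8 h and 437 and 512 at 16 h in TNF+EGF arrays. For PHGDH the TNF+insulin arrays had 574 and 551 at 4 h, 1051 and 721 at 8 h and 962 and 946 at 16 h, so the mixtures did not overlap at any time. Its difference was −0.90 ± 0.12 (adjusted p = 1.93e-05). PSPH, which carries out the last step to serine, differed by −0.83 ± 0.17 (adjusted p = 0.00882) and was lower in TNF+EGF in 6 of 6 pairs, a call lost in 2 of 12 fits with 1 array left out. PSAT1, the enzyme between them, differed by −0.62 ± 0.28 and did not pass without the block (adjusted p = 0.406), but passed with it (adjusted p = 0.0031).

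PCK2 and CTH also fell. PCK2, the mitochondrial enzyme that makes phosphoenolpyruvate from oxaloacetate, had 317 and 371 at 4 h, 479.6 and 489.7 at 8 h and 1919 and 1827 at 16 h in TNF+EGF arrays. The TNF+insulin arrays had 657 and 609.7 at 4 h, 1346 and 975 at 8 h and 2950 and 2490 at 16 h for PCK2. The groups were apart at every time, with a difference of −0.87 ± 0.11 (adjusted p = 1.18e-05). CTH, which makes cysteine from cystathionine, was dim at 4 h, with signals of 46.7 and 68.9 in TNF+EGF arrays and 92.1 and 149 in TNF+insulin arrays. By 16 h CTH reached 611 and 711 in TNF+EGF arrays and 1191 and 1306 in TNF+insulin arrays. Its difference of −1.06 ± 0.23 (adjusted p = 0.011) just missed the threshold without the 4 h replicate 2 of TNF+insulin (−0.96, adjusted p = 0.0507).

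Of the amino acid transporters on the list SLC3A2, SLC7A11 and SLC1A4 were lower. SLC3A2, the heavy chain shared by several amino acid exchangers, had 1037 and 1187 at 4 h, 1378 and 1696 at 8 h and 3349 and 3413 at 16 h in TNF+EGF arrays. SLC3A2 had 1597 and 1654 at 4 h, 4122 and 2706 at 8 h and 4088 and 4568 at 16 h in TNF+insulin arrays. The arrays of the mixtures did not overlap at any time, and at 8 h replicate 1 of TNF+insulin stood above replicate 2. The difference was −0.67 ± 0.11 (adjusted p = 0.00068). SLC7A11, the cystine exchanger that pairs with SLC3A2, differed by −0.61 ± 0.11 (adjusted p = 0.00326), and SLC1A4, a carrier of neutral amino acids such as alanine and serine, by −0.79 ± 0.16 (adjusted p = 0.0059). Their other probe sets were less uniform, at −0.05 and −0.29 without a call for SLC7A11, and between −0.37 and −1.11 with 1 of 3 called for SLC1A4. SLC7A5, the leucine exchanger that pairs with SLC3A2, differed by −0.41 ± 0.12 over the times (adjusted p = 0.0816, with the block 0.00906) and was called at 8 h, at −0.81 ± 0.20. For SLC38A2, a glutamine and alanine carrier, the difference was 0.13 ± 0.10 and did not pass (adjusted p = 0.732).

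DDIT4, NUPR1, GDF15, ATF3 and TRIB3, known to respond to stress, were lower. DDIT4, an inhibitor of mTORC1, had 3210 and 2961 at 8 h in TNF+EGF arrays and 7973 and 9638 in TNF+insulin arrays, while at 16 h its signals of 10050 and 9217 in TNF+EGF arrays lay within the 8367 and 11277 of TNF+insulin arrays. Over the times DDIT4 differed by −0.71 ± 0.14 (adjusted p = 0.00478). NUPR1, a small stress-induced chromatin protein, differed by −0.87 ± 0.16 (adjusted p = 0.00188), and GDF15, a secreted stress cytokine, by −0.63 ± 0.13 (adjusted p = 0.00793). ATF3, a stress transcription factor, differed by −0.42 ± 0.09 (adjusted p = 0.0137), a call lost in 3 of 12 fits with 1 array left out. TRIB3, a pseudokinase that binds ATF4 and AKT, differed by −0.37 ± 0.09 (adjusted p = 0.039), a call that did not hold in 9 of 12 fits with 1 array left out. TRIB3 was lower at 8 h, at −0.89 ± 0.16, and stood at 0.31 ± 0.16 at 16 h. The ATF4 transcript itself, whose protein is set mainly by translation, differed by −0.10 ± 0.12 and did not pass (adjusted p = 0.868). DDIT3, which encodes the stress factor CHOP, differed by −0.49 ± 0.14 (adjusted p = 0.0752, with the block 0.0235).

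**Figure D1:**
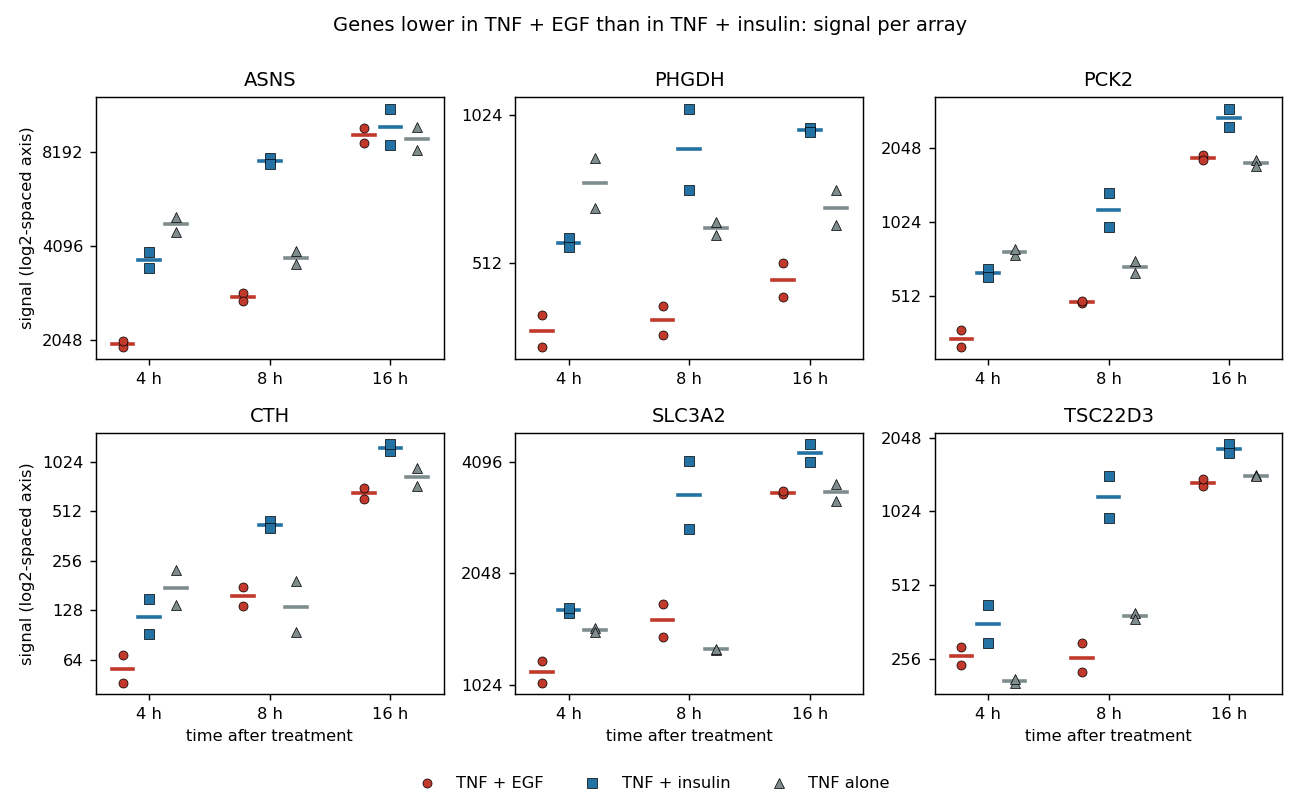
MAS5 signal on a log2 axis of 6 genes that were lower with TNF+EGF, at 4, 8 and 16 h, in TNF+EGF, TNF+insulin and TNF alone. Points are arrays and bars are geometric means of the 2 replicates. PHGDH stays below TNF+insulin at each time, while ASNS meets it at 16 h, at 8782 and 9813 in TNF+EGF arrays and 8632 and 11267 in TNF+insulin arrays.

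The amino acid genes had their widest median difference at 8 h. At 4 h the median difference of the list was −0.27 with 0 of 30 called in the limma fit, at 8 h it was −0.80 with 12 called lower, and at 16 h −0.12 with 2 called lower, PHGDH and SLC1A4. Over all 13422 probe sets 3 were called at 4 h (0.0224%), 83 at 8 h (0.618%) and 78 at 16 h (0.581%). With the replicate block these counts were 22, 290 and 394. The calls were 20 higher and 63 lower at 8 h and 33 higher and 45 lower at 16 h, and centring each array on its median gave 4 higher and 7 lower at 8 h and 6 higher and 22 lower at 16 h. Single arrays also moved this balance. The calls at 8 h were 10 higher and 8 lower without the 8 h replicate 1 of TNF+insulin, and those at 16 h were 15 higher and 10 lower without the 16 h replicate 1 of TNF+insulin.

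Setting each mixture beside TNF alone showed which of them stood away from it. These comparisons share the TNF arrays, so they are given side by side without a test between them. For the 30 measured amino acid genes the median of TNF+EGF minus TNF was −0.02, with 2 genes higher (0.216% of all probe sets were) and 3 lower (0.082%). The median of TNF+insulin minus TNF was 0.36, with 28 of 30 above 0, 6 genes higher (0.216%) and 0 lower (0.0447%). Without the 8 h arrays of replicate 2 the counts were 1 higher and 1 lower for TNF+EGF and 7 higher for TNF+insulin, and with the replicate block 3 higher and 3 lower for TNF+EGF and 13 higher for TNF+insulin. SLC3A2 stood at −0.04 ± 0.11 for TNF+EGF minus TNF and at 0.64 ± 0.11 for TNF+insulin minus TNF (adjusted p = 0.00242). SLC7A11 stood at 0.09 ± 0.11 for TNF+EGF and at 0.70 ± 0.11 for TNF+insulin (adjusted p = 0.000988). GDF15 stood at 0.16 ± 0.13 for TNF+EGF and 0.80 ± 0.13 for TNF+insulin (adjusted p = 0.00109). For ASNS, PHGDH and PCK2 the call was that of TNF+EGF against TNF, and these were the 3 lower genes. Not all 3 of these calls held without the 8 h arrays of replicate 2. ASNS stood at −0.55 ± 0.10 for TNF+EGF (adjusted p = 0.0059) and at 0.26 ± 0.10 for TNF+insulin (adjusted p = 0.559). PHGDH stood at −0.68 ± 0.12 for TNF+EGF (adjusted p = 0.00377) and at 0.22 ± 0.12 for TNF+insulin (adjusted p = 0.833). PCK2 stood at −0.51 ± 0.11 for TNF+EGF (adjusted p = 0.0229) and at 0.36 ± 0.11 for TNF+insulin (adjusted p = 0.252). CHAC1, which degrades glutathione, was higher than with TNF alone in both mixtures, by 0.91 ± 0.20 with TNF+EGF (adjusted p = 0.0334) and by 1.45 ± 0.20 with TNF+insulin (adjusted p = 8.89e-05).

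Promoters of the lower amino acid genes are shown because ATF4 and its partners are known to bind a composite site, the CARE, in some of them. The windows run from 250 bases before to 50 after the annotated start, from RefSeq on GRCh38.p14. The letters searched on both strands were TGATGNAA for the CARE and TGANTCA for AP-1, the FOS and JUN site downstream of ERK, and no window held them overlapping. Of the 13 lower genes 10 had a promoter in the table and 4 of these held the CARE letters (40%), and of the 17 list members not called 15 had one and 4 held them (26.7%). Of all 27305 genes with a promoter 4.46% held them, as did 12.3% of the 57 lower genes with one and 6.67% of the 30 higher genes. A gene counted if any of its windows held the letters, with 17 windows for the 10 genes and 35116 for all 27305. The list was chosen as ATF4 and amino acid response genes, so its share beside that of all genes is no test. Capitals mark the CARE letters in the promoters of ASNS (chr7:97872359-97872658, minus strand), ATF3 (chr1:212565157-212565456, plus strand), SLC1A4 (chr2:64989149-64989448, plus strand) and SLC3A2 (chr11:62881449-62881748, plus strand).
ASNS: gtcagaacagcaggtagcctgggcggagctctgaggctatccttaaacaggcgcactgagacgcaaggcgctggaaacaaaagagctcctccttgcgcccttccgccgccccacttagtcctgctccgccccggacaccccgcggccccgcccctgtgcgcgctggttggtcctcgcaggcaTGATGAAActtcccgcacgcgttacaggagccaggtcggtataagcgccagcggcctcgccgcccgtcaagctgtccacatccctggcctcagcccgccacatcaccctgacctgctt
ATF3: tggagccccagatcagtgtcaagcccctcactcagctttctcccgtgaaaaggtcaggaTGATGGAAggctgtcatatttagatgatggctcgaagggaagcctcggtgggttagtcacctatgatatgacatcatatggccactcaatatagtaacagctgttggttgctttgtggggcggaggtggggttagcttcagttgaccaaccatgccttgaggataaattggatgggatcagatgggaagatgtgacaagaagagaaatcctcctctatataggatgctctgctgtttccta
SLC1A4: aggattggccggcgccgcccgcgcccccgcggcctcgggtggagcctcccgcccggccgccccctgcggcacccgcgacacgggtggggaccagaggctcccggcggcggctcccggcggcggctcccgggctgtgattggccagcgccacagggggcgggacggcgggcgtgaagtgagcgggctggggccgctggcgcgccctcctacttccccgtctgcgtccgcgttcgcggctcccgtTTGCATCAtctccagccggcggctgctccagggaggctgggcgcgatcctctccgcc
SLC3A2: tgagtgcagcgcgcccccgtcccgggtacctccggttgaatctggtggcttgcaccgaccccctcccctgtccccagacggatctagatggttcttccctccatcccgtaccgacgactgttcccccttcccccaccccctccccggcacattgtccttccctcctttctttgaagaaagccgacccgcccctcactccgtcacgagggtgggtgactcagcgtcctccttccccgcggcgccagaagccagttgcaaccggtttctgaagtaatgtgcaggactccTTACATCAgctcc
The match starts 68 bases before the start in ASNS, 191 before it in ATF3 and 7 before it in SLC1A4. In SLC3A2 it starts 37 bases after the start. In SLC1A4 and SLC3A2 the letters lie on the other strand, so the capitals show their reverse complement. A match describes the letters only and shows no binding.

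The cytosolic tRNA synthetases, which charge tRNAs with amino acids and include known ATF4 targets, leaned the same way. Of 16 measured, 3 were called lower, AARS1 (alanine) at −0.58 ± 0.14, EPRS1 (glutamate and proline) at −0.39 ± 0.10 and SARS1 (serine) at −0.38 ± 0.10, with adjusted p of 0.0337, 0.0481 and 0.046. None was called higher, the median was −0.22, and 7 were lower at an unadjusted p under 0.05, as were 622 of all 8105 genes. Of all probe sets 0.715% were called lower and 0.41% higher. With the replicate block 5 were lower. These calls did not hold when single arrays were left out, with 0 to 3 lower over the 12 such fits and 0 in 8 of them. Outside the lists, PYCR1, the last enzyme of proline synthesis, was lower by 0.36 (adjusted p = 0.0137), a call lost in 5 of 12 such fits, and was chosen after its value was seen.

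Genes of insulin signalling showed few calls. Of 21 measured genes 2 were lower with TNF+EGF, beside 0.715% of all probe sets. EIF4EBP1, the translation repressor that mTORC1 phosphorylates and an ATF4 target, had 304 and 527 at 4 h, 453 and 513 at 8 h and 962 and 1065 at 16 h in TNF+EGF arrays. EIF4EBP1 had 773 and 775 at 4 h, 1048 and 862 at 8 h and 1562 and 1727 at 16 h in TNF+insulin arrays. The mixtures were apart at each time, by −0.86 ± 0.14 (adjusted p = 0.000667). PIK3R3, a regulatory subunit of PI3K, was lower by 0.44 (adjusted p = 0.0462), a call lost in 9 of 12 fits with 1 array left out. IRS2, an insulin receptor substrate that FOXO induces, differed by −0.03 ± 0.20 and did not pass (adjusted p = 0.986).

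Among 21 measured FOXO targets and insulin-repressed genes 1 was higher and 1 lower, beside 0.41% and 0.715% of all probe sets, and they moved in opposite ways. CCNG2, an atypical cyclin of resting cells and a FOXO target, had 731 and 812 at 4 h, 1351 and 837 at 8 h and 713 and 451 at 16 h in TNF+EGF arrays. In TNF+insulin arrays CCNG2 had 411 and 259 at 4 h, 451 and 389 at 8 h and 317 and 429 at 16 h. Every TNF+EGF array was above its TNF+insulin pair, by 1.04 ± 0.22 on average (adjusted p = 0.00917). The call was lost without the 16 h replicate 1 of TNF+EGF (0.93, adjusted p = 0.0581). Of its other probe sets 1 was called, at 1.16 ± 0.15 (adjusted p = 1.18e-05), and 1 was not, at 0.89 ± 0.28 (adjusted p = 0.132).

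TSC22D3, the glucocorticoid-induced leucine zipper protein and also a FOXO target, went the other way. TSC22D3 had 242 and 286 at 4 h, 296 and 226 at 8 h and 1300 and 1391 at 16 h in TNF+EGF arrays. Its signals in TNF+insulin arrays were 425 and 297 at 4 h, 1425 and 964 at 8 h and 1923 and 1769 at 16 h. The mixtures did not overlap at any time, and the gap was widest at 8 h. The difference was −0.9996 ± 0.11 over the times (adjusted p = 2.13e-06) and −2.13 ± 0.20 at 8 h. TSC22D3 stood at −0.11 ± 0.11 for TNF+EGF minus TNF and at 0.89 ± 0.11 for TNF+insulin minus TNF (adjusted p = 1.97e-05). Its other probe set, at −1.04 ± 0.35, did not pass (adjusted p = 0.188). TXNIP, which limits glucose uptake, differed by −0.51 ± 0.15 over the times (adjusted p = 0.1, with the block 0.00644) and was called at 8 h, at −1.47 ± 0.26. HBP1, a repressor of cell cycle genes that is on none of the lists, was higher with TNF+EGF by 0.62 ± 0.10 (adjusted p = 0.000671). HBP1 had 702 and 580.4 at 4 h in TNF+EGF arrays and 298 and 279.6 in TNF+insulin arrays, a difference of 1.11 ± 0.18. With 1 probe set per gene it was the only gene called at 4 h, where 3 probe sets were called in all. CCNG2 stood at 1.46 at 4 h by a probe set other than the one that represents it. HBP1 stood at 0.02 ± 0.10 for TNF+EGF minus TNF and at −0.61 ± 0.10 for TNF+insulin minus TNF (adjusted p = 0.0015).

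Other strongly lower genes lay outside these pathways. G0S2, an inhibitor of the fat-splitting lipase ATGL, had 222 and 189.6 at 4 h, 436 and 419 at 8 h and 1865 and 1697 at 16 h in TNF+EGF arrays. G0S2 had 335 and 373 at 4 h, 1410 and 1057 at 8 h and 3261 and 3063 at 16 h in TNF+insulin arrays, above TNF+EGF at every time. Its difference was −1.02 ± 0.18 (adjusted p = 0.00106). INHBE, a subunit of activin and a known stress-induced gene, was dim and differed by −1.01 ± 0.22 (adjusted p = 0.0137), a call lost in 4 of 12 fits with 1 array left out. PMM1, a phosphomannomutase, was dim as well and differed by −0.96 ± 0.25 (adjusted p = 0.046), a call lost in 8 of 12.

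DKK1, a secreted antagonist of Wnt signalling, was among the genes higher with TNF+EGF. Its signals were 627 and 479 at 4 h, 1363 and 1416 at 8 h and 3678 and 4548 at 16 h in TNF+EGF arrays. DKK1 had 350.0 and 478 at 4 h, 676 and 528 at 8 h and 1893 and 2212 at 16 h in TNF+insulin arrays. Every TNF+EGF array was above every TNF+insulin array of its time, though at 4 h by as little as 479 against 478. The difference was 0.87 ± 0.10 (adjusted p = 2.13e-06). Both mixtures stood above TNF alone, by 1.73 ± 0.10 with TNF+EGF (adjusted p = 9.11e-15) and by 0.86 ± 0.10 with TNF+insulin (adjusted p = 1.26e-06). Without TNF, EGF exceeded insulin by 0.83 ± 0.10 (adjusted p = 1.74e-06), and the difference of DKK1 did not detectably depend on TNF (0.04 ± 0.14, adjusted p = 0.995).

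SPRR1B, a cornified envelope precursor of squamous epithelia and a known AP-1 target, had 312 and 305 at 4 h, 416 and 617 at 8 h and 254 and 242 at 16 h in TNF+EGF arrays. SPRR1B had 210.3 and 186 at 4 h, 183 and 259 at 8 h and 89.6 and 146 at 16 h in TNF+insulin arrays. The mixtures were apart at each time, by 0.94 ± 0.18 (adjusted p = 0.00328). SPRR1B stood at 0.91 ± 0.18 for TNF+EGF minus TNF (adjusted p = 0.00688) and at −0.03 ± 0.18 for TNF+insulin minus TNF (adjusted p = 0.999). Its promoter (chr1:153030953-153031252 of GRCh38.p14, plus strand, RefSeq) is shown with the AP-1 letters TGANTCA in capitals, which match at 2 places, the nearer to the window's 5′ end starting 141 bases before the start.
SPRR1B: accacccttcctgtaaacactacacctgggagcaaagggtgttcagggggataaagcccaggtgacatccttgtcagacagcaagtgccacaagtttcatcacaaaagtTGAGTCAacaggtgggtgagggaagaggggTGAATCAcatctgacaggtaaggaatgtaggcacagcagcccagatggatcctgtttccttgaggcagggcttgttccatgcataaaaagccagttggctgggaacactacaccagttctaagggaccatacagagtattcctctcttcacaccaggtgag
The SPRR1B window also held the CARE letters, and the SLC3A2 window above the AP-1 letters, both left unmarked. ARHGDIB, with a larger difference than SPRR1B, held the AP-1 letters too and is not shown. Of the 35 higher genes 30 had a promoter in the table and 7 of these held the AP-1 letters (23.3%), against 7 of the 57 lower genes with one (12.3%) and 9.37% of all genes in the table.

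ARHGDIB differed at the last time. At 16 h ARHGDIB had 222 and 196 in TNF+EGF arrays and 42.6 and 23.7 in TNF+insulin arrays, a difference of 2.31 ± 0.32. At 4 h its signals overlapped, with 563 and 804 in TNF+EGF arrays and 419.7 and 816 in TNF+insulin arrays. The difference over the times was 1.08 ± 0.18 (adjusted p = 0.000894). TNF+insulin lay below TNF alone, by 0.81 (adjusted p = 0.0416), and TNF+EGF stood at 0.27 ± 0.18 from it.

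ITGA2, KRT20 and KRT19 were also higher. ITGA2, the collagen-binding integrin subunit alpha 2, had 300.4 and 234 at 4 h, 353 and 286 at 8 h and 477 and 630.4 at 16 h in TNF+EGF arrays. In TNF+insulin arrays ITGA2 had 192 and 109 at 4 h, 177 and 190.3 at 8 h and 285 and 425 at 16 h, below TNF+EGF at each time. The difference was 0.74 ± 0.14 (adjusted p = 0.00422). KRT20, a keratin of mature intestinal epithelium, had 7300 and 7927 at 4 h, 7748 and 10532 at 8 h and 8368 and 7150 at 16 h in TNF+EGF arrays. KRT20 had 5773 and 5551 at 4 h, 5307 and 6244 at 8 h and 4784 and 4671 at 16 h in TNF+insulin arrays, so that all 6 TNF+EGF arrays lay above all 6 TNF+insulin arrays. Its difference was 0.59 ± 0.09 (adjusted p = 0.000328). KRT19, a keratin of simple epithelia, was higher by 0.55 ± 0.09 (adjusted p = 0.000894), with 6344 to 8789 in TNF+EGF arrays and 3540 to 6472 in TNF+insulin arrays. KRT8 differed by 0.13 ± 0.10 and KRT18 by 0.14 ± 0.15, and neither passed (adjusted p = 0.722 and 0.855). KRT20 stood at 0.48 ± 0.09 for TNF+EGF minus TNF (adjusted p = 0.00697) and at −0.12 ± 0.09 for TNF+insulin minus TNF (adjusted p = 0.965). The call of KRT20 against TNF alone did not hold without the 8 h arrays of replicate 2. KRT20 was the only call among 22 measured genes of intestinal differentiation, of which 1 was higher and 4 were lower at an unadjusted p under 0.05, and the replicate block added 1 lower gene.

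**Figure D2:**
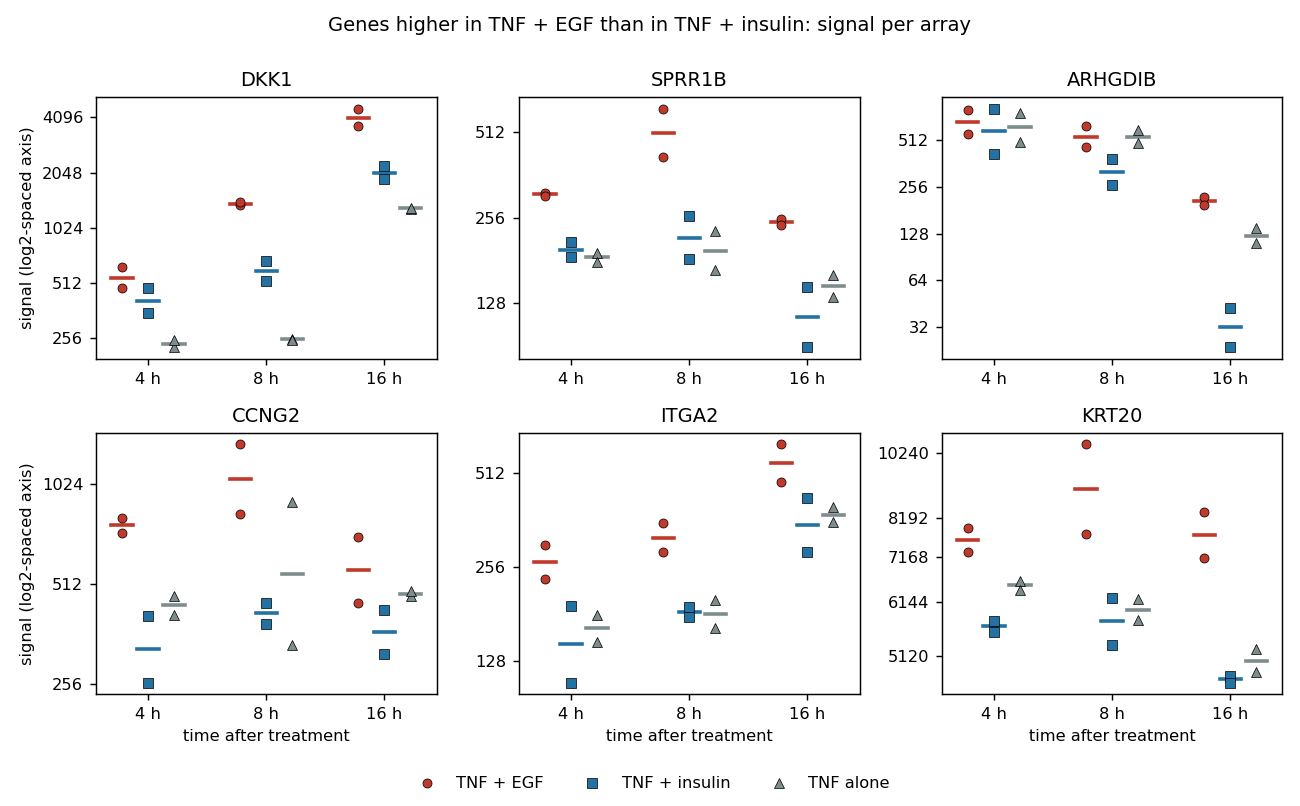
MAS5 signal on a log2 axis of 6 genes that were higher with TNF+EGF, at 4, 8 and 16 h, in TNF+EGF, TNF+insulin and TNF alone. Points are arrays and bars are geometric means of the 2 replicates. All 6 TNF+EGF arrays of KRT20 lie above all 6 of TNF+insulin, and ARHGDIB separates at 16 h, at 222 and 196 in TNF+EGF arrays and 42.6 and 23.7 in TNF+insulin arrays.

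Further genes among the 10 largest positive differences were ELK3, CAV2, EMP1, EMP3 and HSD17B2. ELK3, an ETS factor that ERK phosphorylates, was higher by 0.81 ± 0.20 (adjusted p = 0.0387), a call lost in 7 of 12 fits with 1 array left out. CAV2, a component of caveolae, was higher by 0.75 ± 0.16 (adjusted p = 0.0095), a call lost without the 8 h replicate 1 of TNF+insulin (0.68, adjusted p = 0.0605). Its other probe set, at 0.35 ± 0.20, did not pass (adjusted p = 0.572). EMP1 and EMP3, membrane proteins of 1 family, were higher by 0.74 ± 0.18 and 0.70 ± 0.16 (adjusted p = 0.0294 and 0.018), calls lost in 7 and 6 of 12 such fits. A further EMP1 probe set stood at 0.19 ± 0.17 (adjusted p = 0.781). HSD17B2, which inactivates sex steroids, was higher by 0.70 ± 0.12 (adjusted p = 0.00156).

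The classical feedback genes of ERK were not called over the times. Of 31 measured ERK-responsive genes 2 were called higher and 0 lower, beside 0.41% and 0.715% of all probe sets. At an unadjusted p under 0.05, 4 were higher and 5 lower, as were 295 and 622 of all 8105 genes. The replicate block gave 4 higher and 1 lower. DUSP6, the ERK phosphatase, had 1977 to 3623 in TNF+EGF arrays and 1400 to 4340 in TNF+insulin arrays, which overlapped, and differed by 0.11 ± 0.19 (adjusted p = 0.91). SPRY2 and SPRY4, inhibitors of receptor signalling, differed by 0.05 ± 0.13 and −0.19 ± 0.14. PHLDA1 differed by 0.09 ± 0.13, EGR1 by −0.36 ± 0.17, FOSL1 by −0.01 ± 0.11, MYC by −0.07 ± 0.14 and CCND1 by −0.29 ± 0.15, with adjusted p of 0.438 to 0.993. PHLDA1 was higher in both mixtures than with TNF alone, by 0.98 ± 0.13 with TNF+EGF (adjusted p = 4.55e-05) and by 0.88 ± 0.13 with TNF+insulin (adjusted p = 0.000129). The standard errors leave room for modest differences, so these values do not show that the mixtures act alike on these genes. ETV5, an ERK-induced ETS factor, stood at −0.39 ± 0.12 (adjusted p = 0.11, with the block 0.0268) and was called lower at 8 h, at −0.95 ± 0.21. For ETV4 the difference was −0.32 ± 0.21 and did not pass (adjusted p = 0.666).

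The called members of the ERK list were RGS2, which limits G protein signalling, and ARL14, a small GTPase. RGS2 had 1333 and 1448 at 4 h, 590.4 and 804 at 8 h and 699 and 555 at 16 h in TNF+EGF arrays. In TNF+insulin arrays RGS2 had 1832 and 1710 at 4 h, 335 and 446 at 8 h and 383 and 295 at 16 h. The order of the mixtures turned between 4 and 8 h, and the difference over the times was 0.44 ± 0.10 (adjusted p = 0.0214), a call lost in 6 of 12 fits with 1 array left out. ARL14 was higher by 0.61 ± 0.15 (adjusted p = 0.0301), a call lost in 10 of 12. Without TNF, ARL14 differed between EGF and insulin by 1.32 ± 0.15 (adjusted p = 8.3e-07), CAPRIN2 by 0.97 ± 0.14 (adjusted p = 7.83e-05), DUSP5 by 0.73 ± 0.14 (adjusted p = 0.00392) and JUNB by 0.49 ± 0.12 (adjusted p = 0.0268). Within TNF the differences of CAPRIN2, DUSP5 and JUNB were 0.43 ± 0.14, 0.44 ± 0.14 and 0.01 ± 0.12, which did not pass (adjusted p = 0.164, 0.155 and 0.988), though CAPRIN2 and DUSP5 passed with the block (adjusted p = 0.0434 and 0.0282). The dependence of these 4 genes on TNF did not pass the test without the block either. With the block 1 of the 31 measured ERK-responsive genes passed with a positive and 2 with a negative dependence. As a list they leaned to the negative side, with a median dependence of −0.31 and 2 of 31 above 0. The median dependence of all genes was 0.02.

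The EGF receptor transcript gave probe sets that disagreed. The brightest EGFR probe set differed by 0.44 ± 0.15 (adjusted p = 0.196), another was called at 1.56 ± 0.37 (adjusted p = 0.0274), and the other 3 lay between −0.03 and 1.06 and did not pass. Of the 18 measured genes of the EGF receptor family and its ligands 0 were called by limma, beside 3 at an unadjusted p under 0.05 and 1 higher with the block. EREG, an EGF receptor ligand, differed by 0.02 ± 0.18 (adjusted p = 0.988).

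Acute phase, complement and antiprotease genes moved in both directions. Of 18 measured, 2 were higher and 4 lower, beside 0.41% and 0.715% of all probe sets, with a median of −0.30. Over the 12 fits with 1 array left out 1 to 2 were higher and 2 to 4 lower, and median centring gave 0 higher and 2 lower. LCN2, an iron-scavenging defence protein induced by NF-κB, had 3425 and 3810 at 4 h, 4192 and 4374 at 8 h and 7078 and 7370 at 16 h in TNF+EGF arrays. LCN2 had 6647 and 4760 at 4 h, 6947 and 6182 at 8 h and 8204 and 10619 at 16 h in TNF+insulin arrays, above TNF+EGF at each time. The difference was −0.54 ± 0.10 (adjusted p = 0.00422), a call lost with only both mixtures fitted. TNF+EGF lay below TNF alone for LCN2, by 0.56 (adjusted p = 0.00533), and TNF+insulin stood at −0.02 ± 0.10 from it. WFDC2, an antiprotease-like secreted protein, was lower by 0.66 (adjusted p = 0.00156), and the same side moved, with −0.63 ± 0.12 for TNF+EGF minus TNF (adjusted p = 0.00533) and 0.03 ± 0.12 for TNF+insulin minus TNF (adjusted p = 0.999). The calls of LCN2 and WFDC2 against TNF alone did not hold without the 8 h arrays of replicate 2. In that fit the list median of TNF+EGF minus TNF was −0.17, against −0.20 with all arrays. Complement factor B (CFB) and the C1 inhibitor SERPING1 were lower by 0.37 and 0.31 (adjusted p = 0.0452 and 0.046), calls lost in 10 and 9 of 12 fits with 1 array left out. C3 differed by −0.61 ± 0.24 and did not pass (adjusted p = 0.295).

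The membrane inhibitors of complement were higher with TNF+EGF. CD55, which breaks down complement convertases, had 2570 and 2456 at 4 h, 2632 and 2238 at 8 h and 3950 and 4000 at 16 h in TNF+EGF arrays. In TNF+insulin arrays CD55 had 1117 and 1582 at 4 h, 1658 and 1601 at 8 h and 3929 and 3390 at 16 h. The groups were apart at every time, widely at 4 h and barely at 16 h, with a difference of 0.54 ± 0.11 (adjusted p = 0.007). The call was lost with median centring and with only both mixtures fitted. CD59, which blocks the membrane attack complex, was higher by 0.45 ± 0.11 (adjusted p = 0.0371), a call lost in 8 of 12 fits with 1 array left out. Of its other 3 probe sets 1 was called, at 0.49 ± 0.10, and 2 were not, at 0.40 ± 0.11 and 0.02 ± 0.22.

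Inflammatory genes mostly did not pass. Of 27 measured chemokines and cytokines 2 were higher and 0 lower, beside 0.41% and 0.715% of all probe sets. At an unadjusted p under 0.05, 3 were higher and 1 lower, as were 295 and 622 of all 8105 genes. IL1RN, the natural antagonist of the interleukin-1 receptor, was higher by 0.46 ± 0.09 (adjusted p = 0.00477) in 6 of 6 pairs, a call lost with median centring and with only both mixtures fitted. TNFSF10, the death ligand TRAIL, had 8870 to 13156 in TNF+EGF arrays and 6443 to 9018 in TNF+insulin arrays and was higher by 0.40 ± 0.10 (adjusted p = 0.0274), a call lost in 9 of 12 fits with 1 array left out. TNFSF10 stood at −0.05 ± 0.10 for TNF+EGF minus TNF and was lower with TNF+insulin than with TNF alone, by 0.45 (adjusted p = 0.0208). The call of TNFSF10 against TNF alone did not hold without the 8 h arrays of replicate 2. CXCL8 differed by 0.15 ± 0.19 and CX3CL1 by −0.15 ± 0.10 (adjusted p = 0.874 and 0.664). Of 19 NF-κB subunits and feedback genes 0 were called by limma, beside 1 higher and 2 lower at an unadjusted p under 0.05, and NFKBIA and TNFAIP3 differed by −0.06 ± 0.11 and −0.18 ± 0.13 (adjusted p = 0.921 and 0.732). Of 22 genes of adhesion, matrix and proteolysis ITGA2 was higher and VCAM1, a leukocyte adhesion molecule induced by TNF, was lower by 0.90 (adjusted p = 0.0394). At 8 h VCAM1 had 185 and 182 in TNF+EGF arrays and 883 and 540.4 in TNF+insulin arrays, and its call over the times was lost in 11 of 12 fits with 1 array left out. PLAU, the urokinase protease, stood at 0.81 ± 0.24 and did not pass (adjusted p = 0.108).

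**Figure D3:**
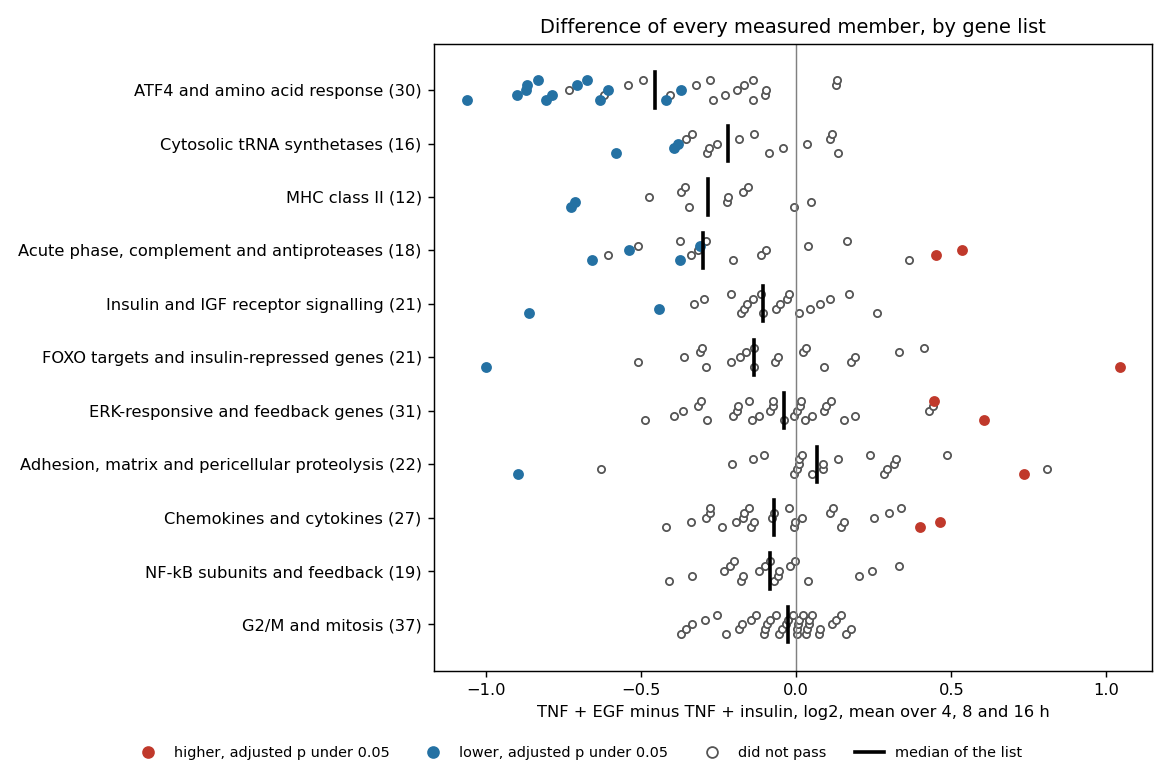
Log2 difference TNF+EGF minus TNF+insulin over the 3 times of every measured member of 11 gene lists. Each point is a gene, coloured where its adjusted p was under 0.05, and bars are list medians. The ATF4 list has its median at −0.46 with 13 of 30 members lower, and the ERK list has its median at −0.04 with 2 of 31 higher.

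Genes of MHC class II, which present antigen to helper T cells and are induced by interferon-gamma through the coactivator CIITA, were lower with TNF+EGF in part. Of 12 measured, 2 were called lower and 0 higher, beside 0.715% and 0.41% of all probe sets. Of the 12, 11 lay below 0, and the median was −0.28, while with the replicate block 4 were lower. Probe sets of HLA genes can read paralogs and alleles of each other, so these values are uncertain as to the gene. HLA-DPB1 had 457 and 539 at 4 h, 644 and 716 at 8 h and 1220 and 1392 at 16 h in TNF+EGF arrays. In TNF+insulin arrays HLA-DPB1 had 658 and 719 at 4 h, 1118 and 1141 at 8 h and 2750 and 2473 at 16 h. The mixtures were apart at every time, by −0.73 ± 0.09 (adjusted p = 1.18e-05). HLA-DQB1 differed by −0.71 ± 0.17 (adjusted p = 0.0228), a call lost in 6 of 12 fits with 1 array left out. CIITA had 211 to 331 in TNF+EGF arrays and 279 to 487 in TNF+insulin arrays. It was lower in 6 of 6 pairs but at −0.47 ± 0.14 did not pass without the block (adjusted p = 0.0865, with the block 0.0204). HLA-DPA1 stood at −0.37 ± 0.12 (adjusted p = 0.137, with the block 0.0148), and CD74, the invariant chain, at −0.01 ± 0.10 (adjusted p = 0.994). HLA-DRB4, which is not on the list, differed by −0.77 ± 0.18 (adjusted p = 0.0236), a call lost in 7 of 12 such fits.

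Without TNF 11 of these 12 genes lay above 0. EGF minus insulin had a median of 0.44 over them, with 3 called higher, beside 0.954% of all probe sets called higher and 0.0969% called lower in that comparison. Without the 8 h arrays of replicate 2, among them the insulin array with the ACTB ratio of 0.976, 1 was called higher, and with the replicate block 6 were. HLA-DPB1 had 493 and 601 at 4 h, 611 and 680.0 at 8 h and 1127 and 1672 at 16 h with EGF alone. With insulin alone HLA-DPB1 had 391 and 366 at 4 h, 493 and 422 at 8 h and 972 and 1075 at 16 h, below EGF alone at every time. Its difference without TNF was 0.47 ± 0.09 (adjusted p = 0.00392), and for CIITA it was 0.73 ± 0.14 (adjusted p = 0.00232).

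The test of the difference between both differences, called dependence on TNF here, was passed by 33 probe sets (0.246%), 4 of them positive and 29 negative, and by 128 with the replicate block. Of the 12 MHC class II genes 3 passed, all negative, and 7 did with the block. The dependence was −1.20 ± 0.13 for HLA-DPB1 (adjusted p = 1.28e-06), −1.21 ± 0.19 for CIITA (adjusted p = 0.00103) and −1.23 ± 0.23 for HLA-DQB1 (adjusted p = 0.00793). HLA-DRB4 had −1.52 ± 0.25 (adjusted p = 0.00132). Each of these 4 calls held in the 24 fits that left out 1 array of the 4 treatments and in the fit without the 8 h arrays of replicate 2. For HLA-DPB1, TNF+EGF minus TNF was −0.37 ± 0.09 (adjusted p = 0.09) and TNF+insulin minus TNF 0.36 ± 0.09 (adjusted p = 0.107), so neither mixture passed against TNF alone without the block. With the block 1 of the 12 MHC class II genes was lower for TNF+EGF minus TNF and 1 was higher for TNF+insulin minus TNF.

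**Figure D4:**
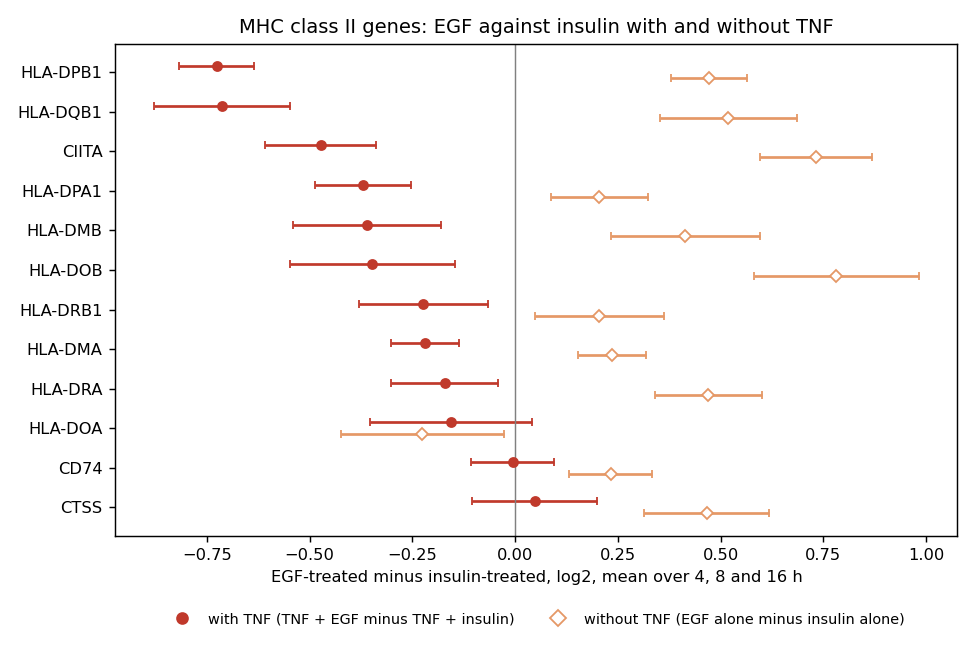
Log2 difference of EGF and insulin within TNF (TNF+EGF minus TNF+insulin) and without TNF (EGF minus insulin) for the 12 measured MHC class II genes, with standard errors. For HLA-DPB1 the points lie at −0.73 ± 0.09 within TNF and 0.47 ± 0.09 without it, and for 11 of 12 genes the point within TNF is below 0.

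Among the amino acid genes 4 of 30 passed the test of dependence on TNF, all negative, and 8 did with the block. The dependence was −0.91 ± 0.15 for ASNS (adjusted p = 0.00107), −1.07 ± 0.17 for PHGDH (adjusted p = 0.00103), −1.04 ± 0.16 for PCK2 (adjusted p = 0.000594) and −0.94 ± 0.16 for SLC7A11 (adjusted p = 0.00167), and these 4 held in each of the 24 fits with 1 array left out. Without TNF the list had a median of −0.04 for EGF minus insulin, with 0 of 30 called in either direction in limma and 2 higher and 1 lower with the block. ASNS had 2971 and 3395 at 4 h, 3842 and 3562 at 8 h and 8378 and 12240 at 16 h with EGF alone, and 2109 and 2034 at 4 h, 3776 and 4093 at 8 h and 11694 and 11670 at 16 h with insulin alone. So at 4 h ASNS stood above insulin with EGF alone, and below TNF+insulin with TNF+EGF. SLC3A2 missed the test at −0.60 ± 0.16 (adjusted p = 0.108, with the block 0.0119).

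Of the positive calls, SPRR1B had a dependence of 1.23 ± 0.25 (adjusted p = 0.0147), C3orf52, a membrane protein, 0.79 ± 0.15 (adjusted p = 0.0113) and ARHGDIB 1.16 ± 0.26 (adjusted p = 0.0405). These calls were lost in 4, 1 and 15 of the 24 fits with 1 array left out. SPRR1B had 85.7 and 142 at 4 h, 101 and 195 at 8 h and 85.6 and 63.8 at 16 h with EGF alone, and 96.6 and 118 at 4 h, 131 and 198 at 8 h and 156 and 111.4 at 16 h with insulin alone. EGF therefore did not exceed insulin for SPRR1B without TNF, at −0.29 ± 0.18 (adjusted p = 0.592). DEPP1, a FOXO-induced regulator of autophagy, had a dependence of −1.22 ± 0.25 (adjusted p = 0.0229, lost in 9 of 24), with 0.04 ± 0.18 within TNF and 1.26 ± 0.18 without it.

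The called probe sets were also set beside EGF minus insulin without TNF, where 43% of all 13422 lay above 0, 57% lay below it and the median was −0.03. That comparison called 0.954% of all higher and 0.0969% lower. Of the 55 called higher 46 were above 0 there and 21 were called higher there too, and their median there was 0.35. Of the 96 called lower 61 were below 0 there and 0 were called lower by limma, and their median there was −0.06. The comparisons share no arrays, and the contrast of these counts was not tested.

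**Figure D5:**
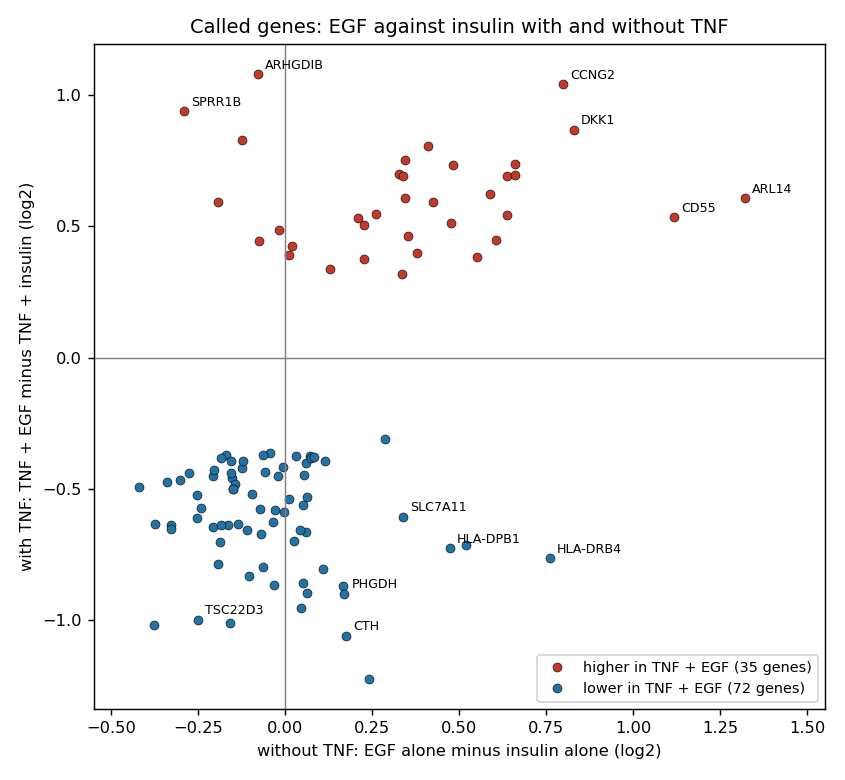
Log2 difference within TNF (TNF+EGF minus TNF+insulin) against the difference without TNF (EGF minus insulin) of the 107 called genes, 35 higher and 72 lower, 1 point per gene. The higher genes lie mostly to the side where EGF exceeded insulin without TNF, such as DKK1 at 0.87 within TNF and 0.83 without it, while the lower genes spread around 0 there, and HLA-DPB1 lies on opposite sides at −0.73 and 0.47.

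The difference between the mixtures itself changed with time for 19 probe sets (0.142%), which stood for 14 genes, and for 103 probe sets with the replicate block. The p-values here are those of limma's F test over both changes, to 8 h and to 16 h, while the change printed is that of the difference at 16 h minus that at 4 h. DNAJB9, a chaperone partner induced by stress of the endoplasmic reticulum, had 3039 and 3039 at 8 h in TNF+EGF arrays and 889 and 2050 in TNF+insulin arrays, and the order turned at 16 h, with 1238 and 1712 in TNF+EGF arrays and 3705 and 3961 in TNF+insulin arrays. The change of its difference was −1.66 ± 0.37 (adjusted p = 0.0018), and it was the only one of the 10 genes named for change with time whose call held in each of the 12 fits with 1 array left out. ASNS and TRIB3, lower with TNF+EGF early, lost that difference by 16 h, with changes of 0.80 ± 0.26 and 0.84 ± 0.23 (adjusted p = 0.0299 for both). The calls of ASNS and TRIB3, and that of SMC4 below, did not hold without the 8 h arrays of replicate 2. RGS2 changed by 1.21 ± 0.25 (adjusted p = 0.0287). NUDT1, which cleans oxidised nucleotides, had 110.2 and 92.1 at 16 h in TNF+EGF arrays and 13.5 and 11.1 in TNF+insulin arrays, and its difference changed by 2.36 ± 0.44 (adjusted p = 0.0276). These TNF+insulin signals lay near the added 12.49, so the size of the NUDT1 change is uncertain. SMC4, a condensin subunit, went to the lower side by 16 h, at a change of −1.13 ± 0.20 (adjusted p = 0.0153), and AKR1B10, an aldo-keto reductase, likewise at −0.96 ± 0.22 (adjusted p = 0.0163).

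The remaining lists held few or no calls over the times, where 0.41% of all probe sets were called higher and 0.715% lower. With the replicate block each list named here gave 0 to 2 higher and 0 to 2 lower. LAMP3 and IFI44L were lower among 40 type I interferon-stimulated genes, at −0.48 ± 0.12 and −0.70 ± 0.18 (adjusted p = 0.0338 and 0.0384), calls lost in 8 of 12 fits each. SERPING1 was the only call among 24 interferon-gamma targets, NDRG1 at 0.54 ± 0.13 (adjusted p = 0.028, lost in 7 of 12) the only one among 16 hypoxia-responsive genes, DKK1 the only one among 8 Wnt genes and DTL at −0.64 ± 0.14 (adjusted p = 0.0152, lost in 5 of 12) the only one among 39 genes of G1/S and DNA replication. Limma called 0 of 19 genes of sterol synthesis, 0 of 14 of fatty acid synthesis and 0 of 19 of glycolysis, with 5, 3 and 2 at an unadjusted p under 0.05. The block gave 2 higher sterol genes, 1 higher and 1 lower fatty acid gene and 0 glycolysis genes. HMGCS1, an early sterol enzyme, differed by 0.32 ± 0.18 (adjusted p = 0.572). In the same way 0 of 28 apoptosis genes, 0 of 17 of MHC class I loading, 0 of 16 of BMP and TGF-beta, 0 of 25 of ribosome biogenesis and 0 of 37 of mitosis were called, with 1, 0, 2, 3 and 5 at an unadjusted p under 0.05. There the block called 1 apoptosis gene lower, 1 BMP and TGF-beta gene higher, 2 ribosome biogenesis and 2 mitosis genes lower, and 0 of MHC class I loading. The endoplasmic reticulum chaperones (0 of 19), metallothioneins and redox genes (0 of 19) and growth arrest genes (0 of 13) held 3, 3 and 1 at that level, where 11.3% of all genes had an unadjusted p under 0.05. The block called 2 metallothionein and redox genes higher and 0 of the other two lists.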

How the data were processed

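RNA of HT-29 cells was measured on 54 Affymetrix arrays, 1 per sample, in 9 treatments at 3 times with 2 replicates, of which 12 arrays form the comparison. The deposited intensity values are linear MAS5 signals per probe set, named as such in the submitters' processing notes, which give no version. With 2% trimmed at each end every array has a mean of 500.2, so the values had been scaled. The number of arrays limits the precision. No deposited column was left unused.

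Of 22283 probe sets 68 controls were dropped, and 13422 were kept whose mean log2 signal in at least 1 of the 27 treatment-by-time groups was no lower than the overall median, a signal of 138.85. Symbols came from the platform annotation given with the data, under which 19065 probe sets have 1 symbol, 1043 several and 2107 none. A gene is represented by its probe set with the highest mean. Signals were transformed to log2 (signal + 12.49), the 10th percentile of all signals. Limma 3.58.1 in R 4.3.3 (lmFit, eBayes with trend and robust) was fitted with 1 mean for each of 27 groups over all 54 arrays, which leaves 27 residual degrees of freedom and 1 estimate of the spread. The Benjamini and Hochberg adjustment ran over the 13422 probe sets, at a level of 0.05. In data simulated for this comparison on 13422 probe sets, 28.3%, 79.7% and 100% of changes of 0.5, 1 and 2 on the log2 scale were recovered. Figures were drawn with matplotlib 3.10.9 in Python 3.11.15.

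Within a time, arrays of equal replicate number deviated from their group means together, with correlations of 0.125 at 4 h, 0.331 at 8 h and 0.252 at 16 h, so the number pairs arrays within a time, and the fit with it as a block is given where it changes a call. Alternatives covered the pseudocount, the filter, quantile normalization, median centring, the arrays fitted, the block, the ACTB ratio as a covariate and single arrays left out. The comparison and its 32 gene lists were chosen with earlier results of these data known. The genes named are the 10 called genes with the largest difference in each direction whose sign was the same at all times, the 5 largest in each direction for change with time and for dependence on TNF, up to 4 members of a list by p, and 26 measured genes of a fixed set of 30. Other genes were named after their values were seen.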

Additional observations from a re-analysis of the deposited data

Results flagged for a closer look

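The difference between TNF+EGF and TNF+insulin changed with time for 19 probe sets by limma's F test, the test of that change itself. Among the 5 genes with the largest positive change from 4 h to 16 h, the change was 2.36 for NUDT1, 1.36 for DECR2, 1.21 for RGS2, 0.84 for TRIB3 and 0.80 for ASNS, on the log2 scale, with adjusted p of 0.0276 to 0.0299. The largest negative changes were −2.25 for KLF11, −1.66 for DNAJB9, −1.13 for SMC4, −1.03 for LAMP3 and −0.96 for AKR1B10, with adjusted p of 0.0018 to 0.0163. The change from 4 h to 16 h uses no 8 h array, so leaving out those of replicate 2 could not alter it. In that fit ASNS, TRIB3, DECR2, KLF11, LAMP3 and SMC4 no longer passed the F test, which also uses 8 h. DNAJB9 kept its call in 12 of 12 fits with 1 array left out, KLF11 lost it in 2, SMC4 and LAMP3 in 4, AKR1B10 in 5, NUDT1, TRIB3 and ASNS in 6, DECR2 in 7 and RGS2 in 8.

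The difference depended on TNF, by the test of the difference within TNF minus that without it, for 33 probe sets. The largest positive values were 1.23 for SPRR1B, 1.16 for ARHGDIB and 0.79 for C3orf52. The largest negative ones were −1.52 for HLA-DRB4, −1.23 for HLA-DQB1, −1.22 for DEPP1, −1.21 for CIITA and −1.20 for HLA-DPB1. Without the 8 h arrays of replicate 2, C3orf52 (adjusted p = 0.0649) and ARHGDIB (adjusted p = 0.128) no longer passed, while the other 6 did.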

How the results depend on the processing

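The 151 calls over the times changed in number under several alternatives. They came to 49 with median centring, 29 with only both mixtures fitted and 58 with both mixtures alone and the replicate block, an alternative chosen after seeing the data. They came to 420 with the block within each time, 238 with the block over all times and 235 with the ACTB ratio as a covariate. Of the 151, 49 were shared with median centring, 28 with only both mixtures fitted, 50 with both mixtures alone and the block, and all 151 with each of the 3 larger counts. The share of higher calls was 36.4%, 46.6% with both mixtures alone and the block, and 52.5% and 54.1% without the replicate 1 of TNF+insulin at 8 h and at 16 h. Leaving out 1 array gave 61 to 186 calls.

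At 4 h the 3 calls came to 5 with the stricter filter or without the 8 h arrays of replicate 2, 22 and 7 with the block within and over times, 9 with the ACTB ratio and 1 to 13 with 1 array left out. Limma gave 0 at 4 h with median centring, only both mixtures or both mixtures alone and the block, where 372, 319 and 547 had an unadjusted p under 0.05. The 83 calls at 8 h came to 55 without a filter, 11 with median centring and 11 with only both mixtures. They came to 290 and 137 with the blocks, 132 with the ACTB ratio, 34 without the 8 h arrays of replicate 2, 40 with both mixtures alone and the block, and 14 to 170 with 1 array left out. The 78 at 16 h came to 28 with median centring, 394 and 165 with the blocks, 147 with the ACTB ratio, 2 with both mixtures alone and the block and 17 to 105 with 1 array left out. Only both mixtures gave 0 there in limma, beside 1132 at an unadjusted p under 0.05.

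The 19 calls for change with time came to 11 with quantile normalization or plain eBayes, 6 with median centring, 103 and 43 with the blocks, 33 with the ACTB ratio and 1 with both mixtures alone and the block. Only both mixtures gave 0 in limma, beside 531 at an unadjusted p under 0.05, and 1 array left out gave 7 to 54. The 33 for dependence on TNF came to 21 without a filter, 18 with median centring, 13 with only the 4 treatments fitted, 128 and 52 with the blocks, 61 with the ACTB ratio and 15 to 53 with 1 array left out. Where a group was left with 1 array it was assumed to vary like the others. The causes of these shifts were not tested. No called difference over the times of a named gene changed direction under the alternatives run. The direction of the other calls was not checked. Several alternatives, such as the filters and plain eBayes, leave the difference itself unchanged, so they could not turn it. Of 4337 values of named genes under alternatives, 3887 kept direction and side of the threshold, 311 no longer passed, 86 newly passed and 53, of 16 genes that were not called, changed sign. With 2 arrays per group and time, changes of 0.5 on the log2 scale were recovered in 28.3% of simulated cases.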

Other observations

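At 16 h 2 of 39 genes of G1/S and DNA replication (CDC6 and GINS2) and 2 of 37 of mitosis (CDC25B and CDCA8) were lower with TNF+EGF, and 2 of 19 of sterol synthesis (SQLE and FDPS) were higher, where 0.581% of all probe sets were called. CDC6, which loads the replicative helicase, had 159 and 187 at 16 h in TNF+EGF arrays and 338 and 437 in TNF+insulin arrays, a difference of −1.10 ± 0.21 (limma adjusted p = 0.00853). CDC25B, a phosphatase that starts mitosis, had 1745 and 2108 at 16 h in TNF+EGF arrays and 3639 and 3733 in TNF+insulin arrays, a difference of −0.94 ± 0.17 (adjusted p = 0.00305). GINS2, a subunit of the same helicase, and CDCA8, of the chromosomal passenger complex, differed by −1.53 ± 0.33 and −0.79 ± 0.17 there. The sterol enzymes SQLE and FDPS were higher at 16 h, by 0.94 ± 0.20 and 0.81 ± 0.17 (adjusted p = 0.0158 for both). SQLE had 5768 and 3793 in TNF+EGF arrays and 2529 and 2348 in TNF+insulin arrays. At 8 h 1 of 31 ERK-responsive genes was higher, RGS2, and 2 were lower, ETV5 and IER3, and of 18 genes of the EGF receptor family and its ligands 1 was lower, HBEGF. HBEGF, an EGF receptor ligand, PTGS2, the inducible cyclooxygenase, which is on no list, and IER3 were lower with TNF+EGF, by 1.82, 1.30 and 0.94 on the log2 scale (adjusted p = 0.0304, 0.0304 and 0.00034). None of these genes was called at 4 h, and they were named after their values were seen.

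Over the times the ketosteroid reductases AKR1C1 and AKR1C2 were lower, at −0.66 ± 0.12 and −0.66 ± 0.16 (adjusted p = 0.00326 and 0.028, with the AKR1C2 call lost in 7 of 12 fits with 1 array left out), though probe sets of this family may read each other's transcripts. AKR1C1 had 1094 and 1280 at 16 h in TNF+EGF arrays and 2941 and 2164 in TNF+insulin arrays. NFIL3, a transcriptional repressor, and HES1, a Notch target, were lower by 0.64 and 0.59 (adjusted p = 0.000894 and 0.00568).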
